A study of Mus musculus with 9 samples.

Results

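The genes described here encode the proteins of the mitochondrial ribosome. They were taken from the gene table by symbol, as every gene named Mrpl or Mrps followed by a digit, without the symbols that contain -ps, which name pseudogenes. This rule gave 78 genes of the 56691 in the table, 49 named Mrpl and 29 named Mrps, and it used no measured value. By the structure of the mammalian mitochondrial ribosome, 51 of the 78 belong to the large subunit and 26 to the small subunit. Mrps30 and Mrps18a stand among the large-subunit genes despite the S in their names. Mrps36 was counted in neither subunit, because its protein is now assigned to the 2-oxoglutarate dehydrogenase complex.

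The RNA came from RAW264.7 cells, an established mouse macrophage-like cell line that forms osteoclasts when it is given RANKL, the cytokine of the tumour necrosis factor family that drives osteoclast differentiation. There were 3 groups of 3 libraries, each collected after 3 days of culture. The control group had neither agent, the RANKL group had RANKL alone, and the RANKL + UD group had RANKL together with uridine (UD), a pyrimidine nucleoside. The comparison of RANKL with control addresses differentiation, and the comparison of RANKL + UD with RANKL addresses what UD changes in cells given RANKL. No group had UD without RANKL. An effect of UD on differentiation therefore cannot be told apart from an effect on these cells that does not depend on it. All 9 libraries came from 1 cell line. The labels number the replicates as biosamples without saying that they were separate cultures, so the p-values given here measure the spread between these libraries, which may be technical.

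The mitochondrial ribosome translates the messengers of the mitochondrial genome, which encode core subunits of the respiratory chain and of ATP synthase. Its RNAs are transcribed inside the organelle, whereas its proteins are all encoded in the nucleus, made on cytosolic ribosomes and imported. Some have a counterpart in the bacterial ribosome and others occur in mitochondria only. Osteoclasts are rich in mitochondria, and differentiation by RANKL is known to be accompanied by mitochondrial biogenesis.

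Library totals ranged from 15951800 to 19746862 counts, with a median of 19182637. A gene was tested where its level reached 1 FPKM (fragments of each gene scaled by its exonic length and by the library total) in at least 3 libraries, which 11995 genes did. Of 8 osteoclast markers tested, 8 were higher with RANKL than in control, and the same 8 were lower with RANKL + UD than with RANKL, by a median log2 fold change of -0.90. Of 10 markers of proliferating cells, 10 were lower with RANKL and 10 were higher with RANKL + UD than with RANKL, with median log2 fold changes of -0.73 and 0.68. Of 7 macrophage markers tested, 1 was higher and 6 were lower with RANKL, and 2 were higher and 5 lower with RANKL + UD than with RANKL. None of 8 markers of osteoblasts, lymphocytes and endothelium reached the level needed for a test. The FPKM values carry no scaling beyond the library total. The fitted fold changes do, and as a result the log2 ratio of FPKM between RANKL + UD and RANKL is 0.09 above the fitted log2 fold change, and that between RANKL and control is 0.09 below it.

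Of the 78 genes, 77 were tested. The exception was Mrpl53, a large-subunit gene found in mitochondria only, with 0.60, 0.0600 and 0.32 FPKM in the control libraries, 0.13, 0.20 and 0.13 in the RANKL libraries and 0.52, 0.47 and 1.03 in the RANKL + UD libraries, and with at most 14 counts in any library. The mean FPKM of the tested genes over all 9 libraries ran from 2.85 to 68.3, with a median of 11.8, which stands at the 65.5th percentile of all tested genes. The highest means were those of Mrps21 (68.3 FPKM), Mrpl18 (45.2), Mrpl24 (44.8), Mrps18c (39.6) and Mrps6 (39.6). The lowest were those of Mrps12, a protein of the decoding centre, with 2.85 FPKM, Mrps16 (3.56), Mrpl57 (3.67), Mrpl48 (3.91) and Mrps10 (4.34). The genes lie on 17 chromosomes, with 11 of them on chromosome 11.

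The promoters of the members were read for sequence motifs they share. RefSeq promoter windows (GRCm38.p6, 250 bases before to 50 after the start, both strands searched) matched 69 of the 78 genes by symbol, with 75 windows. An ETS motif (CCGGAAG) was in 34.7% of these windows, 19.4% of the windows of tested genes and 8.86% of all windows. An NRF1 motif (GCATGCGC), known from nuclear genes for respiration, was in 10.7%, 5.62% and 2.71%. A YY1 motif (AAGATGGC) was in 16.0%, 4.92% and 2.75%. The E-box (CACGTG) was in 9.33%, 10.3% and 7.15%, the CCAAT box (CCAAT) in 40.0%, 38.3% and 37.4% and the GC box (GGGCGG) in 52.0%, 62.9% and 35.7%. Genes with several windows count more than once in these shares. Counted per gene, the E-box was in 7.25% of members, 12.2% of tested genes and 8.09% of all genes with a window. The CCAAT box was in 39.1%, 43.6% and 41.1%. For the ETS, NRF1 and YY1 motifs and the GC box the order of the shares was the same per gene. A match is a run of letters and does not show that a factor binds there.

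The stretches shown here, of 150 bases each and ending before the first annotated exon, were picked by hand. They show 1 motif each in members described singly below, and none was picked for the YY1 motif or the E-box. Each reads 5′ to 3′ on the strand of the gene, and capitals mark a CCAAT box read from the other strand in Mrpl41, the NRF1 motif in Mrpl10, the ETS motif read from the other strand in Mrpl52 and GC boxes in Mrps6. They lie at chr2:24975099-24975248 on the minus strand for Mrpl41 and, on the plus strand, at chr11:97041410-97041559 for Mrpl10, chr14:54426759-54426908 for Mrpl52 and chr16:92058120-92058269 for Mrps6.
Mrpl41: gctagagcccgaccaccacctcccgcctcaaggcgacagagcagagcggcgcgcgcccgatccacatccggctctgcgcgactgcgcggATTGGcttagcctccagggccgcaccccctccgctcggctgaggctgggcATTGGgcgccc
Mrpl10: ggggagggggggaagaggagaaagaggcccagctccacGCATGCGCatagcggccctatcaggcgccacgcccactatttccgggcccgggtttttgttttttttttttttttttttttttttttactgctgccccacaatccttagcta
Mrpl52: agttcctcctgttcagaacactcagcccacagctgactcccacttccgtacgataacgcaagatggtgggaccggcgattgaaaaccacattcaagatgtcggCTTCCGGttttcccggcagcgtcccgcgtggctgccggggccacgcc
Mrps6: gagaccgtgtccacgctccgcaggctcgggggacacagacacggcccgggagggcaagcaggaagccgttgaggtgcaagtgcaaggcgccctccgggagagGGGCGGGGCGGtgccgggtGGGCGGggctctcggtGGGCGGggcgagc

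RANKL raised 28 of the 77 tested genes over control and lowered 2, at an adjusted p under 0.05 (edgeR quasi-likelihood test, Benjamini-Hochberg adjustment over all 11995 genes). The members called were 36.4% higher and 2.60% lower, where 27.3% of all tested genes were higher and 30.2% lower. The median log2 fold change of the 77 was 0.17, and that of all tested genes was -0.03. The split depended on the scaling. With library totals alone, 18 were higher and 5 lower, with a median of 0.08 beside a median of -0.12 for all tested genes. Of 50 large-subunit genes 18 were higher and 1 lower, and of 26 small-subunit genes 10 were higher and 1 lower. Only 5 of the rises exceeded 1.5-fold, and they were those of Mrpl52, Mrps6, Mrpl54, Mrps28 and Mrps35.

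Mrpl52, a protein that only mitochondrial ribosomes have, showed the largest rise with RANKL. Its FPKM was 6.69, 8.31 and 8.82 in the control libraries, 21.5, 19.7 and 21.9 in the RANKL libraries and 20.6, 23.0 and 18.0 in the RANKL + UD libraries. Every library given RANKL, with or without UD, stood above every control library, and the values with and without UD overlapped. The log2 fold change was 1.49 ± 0.12 (SE, adjusted p = 7.32e-10) for RANKL against control, a 2.81-fold rise, and -0.12 ± 0.11 (SE, adjusted p = 0.403) for RANKL + UD against RANKL.

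Mrps6, the mitochondrial form of bacterial S6, was the only gene among those 5 that also rose with UD. Its FPKM was 20.3, 20.2 and 21.7 in the control libraries, 40.3, 40.0 and 46.0 in the RANKL libraries and 59.5, 55.1 and 53.1 in the RANKL + UD libraries, so the 3 groups did not overlap. The log2 fold change was 1.11 ± 0.07 (SE, adjusted p = 2.94e-11) with RANKL and 0.32 ± 0.07 (SE, adjusted p = 7.43e-04) for RANKL + UD against RANKL. These values are uncertain, since Slc5a3, an inositol transporter gene on the same strand, shares 29152 bases with the span of Mrps6, and how the counting divided reads between the 2 genes was not stated. Slc5a3 itself had a log2 fold change of 1.15 with RANKL and 0.60 for RANKL + UD against RANKL. Its part in the values of Mrps6 was not tested.

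Mrpl54, another protein that only mitochondrial ribosomes have, had FPKM values of 6.55, 8.04 and 8.36 in the control libraries, 12.1, 14.1 and 14.5 in the RANKL libraries and 12.9, 15.1 and 12.7 in the RANKL + UD libraries. The control libraries lay below all others, and its log2 fold change was 0.91 ± 0.14 (SE, adjusted p = 1.25e-05) with RANKL. Mrps28, a small-subunit protein, had FPKM values of 5.53, 6.66 and 6.89 in the control libraries, 10.6, 11.1 and 10.7 in the RANKL libraries and 11.0, 10.3 and 9.61 in the RANKL + UD libraries and likewise separated the control libraries from the rest, with a log2 fold change of 0.85 ± 0.15 (SE, adjusted p = 5.54e-05). Neither passed the test between RANKL + UD and RANKL, where the log2 fold changes were -0.09 and -0.15. Mrps35, a small-subunit protein of mitochondria only, had FPKM values of 3.34, 3.36 and 3.48 in the control libraries, 4.43, 4.91 and 5.09 in the RANKL libraries and 5.91, 5.23 and 5.47 in the RANKL + UD libraries. It rose by 0.59 ± 0.08 (SE, adjusted p = 1.53e-06) on the log2 scale with RANKL, and although its RANKL + UD libraries all lay above its RANKL libraries in FPKM, that difference did not pass the test (0.12, adjusted p = 0.237), except with library totals (0.20, adjusted p = 0.0351).

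The next largest rises with RANKL were those of Mrpl17, a protein at the exit of the tunnel through which the new chain leaves the ribosome, with a log2 fold change of 0.56 ± 0.06 (SE, adjusted p = 1.66e-07), Mrps18b (0.53 ± 0.10 SE, adjusted p = 7.36e-05) and Mrpl15 (0.52 ± 0.07 SE, adjusted p = 6.81e-07). The 8 largest rises held without any 1 of the 9 libraries. The 2 falls did not. Mrpl13, a large-subunit protein with a bacterial counterpart, had FPKM values of 5.09, 4.98 and 5.13 in the control libraries, 4.05, 3.59 and 4.16 in the RANKL libraries and 5.02, 4.03 and 4.25 in the RANKL + UD libraries, and the RANKL libraries lay below all control libraries. Its log2 fold change with RANKL was -0.28 ± 0.09 (SE, adjusted p = 0.0119), and without RANKL replicate 2 it was -0.21 (adjusted p = 0.0756). Mrps10, a small-subunit protein, had FPKM values of 4.93, 4.43 and 4.93 in the control libraries, 3.57, 3.89 and 4.03 in the RANKL libraries and 4.38, 4.33 and 4.61 in the RANKL + UD libraries and a log2 fold change of -0.23 ± 0.08 (SE, adjusted p = 0.0191) with RANKL. Without control replicate 1 it was -0.20 (adjusted p = 0.0691) and without RANKL replicate 1 it was -0.18 (adjusted p = 0.0893), and with no filter on low values it was -0.21 (adjusted p = 0.0538).

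**Figure D1:**
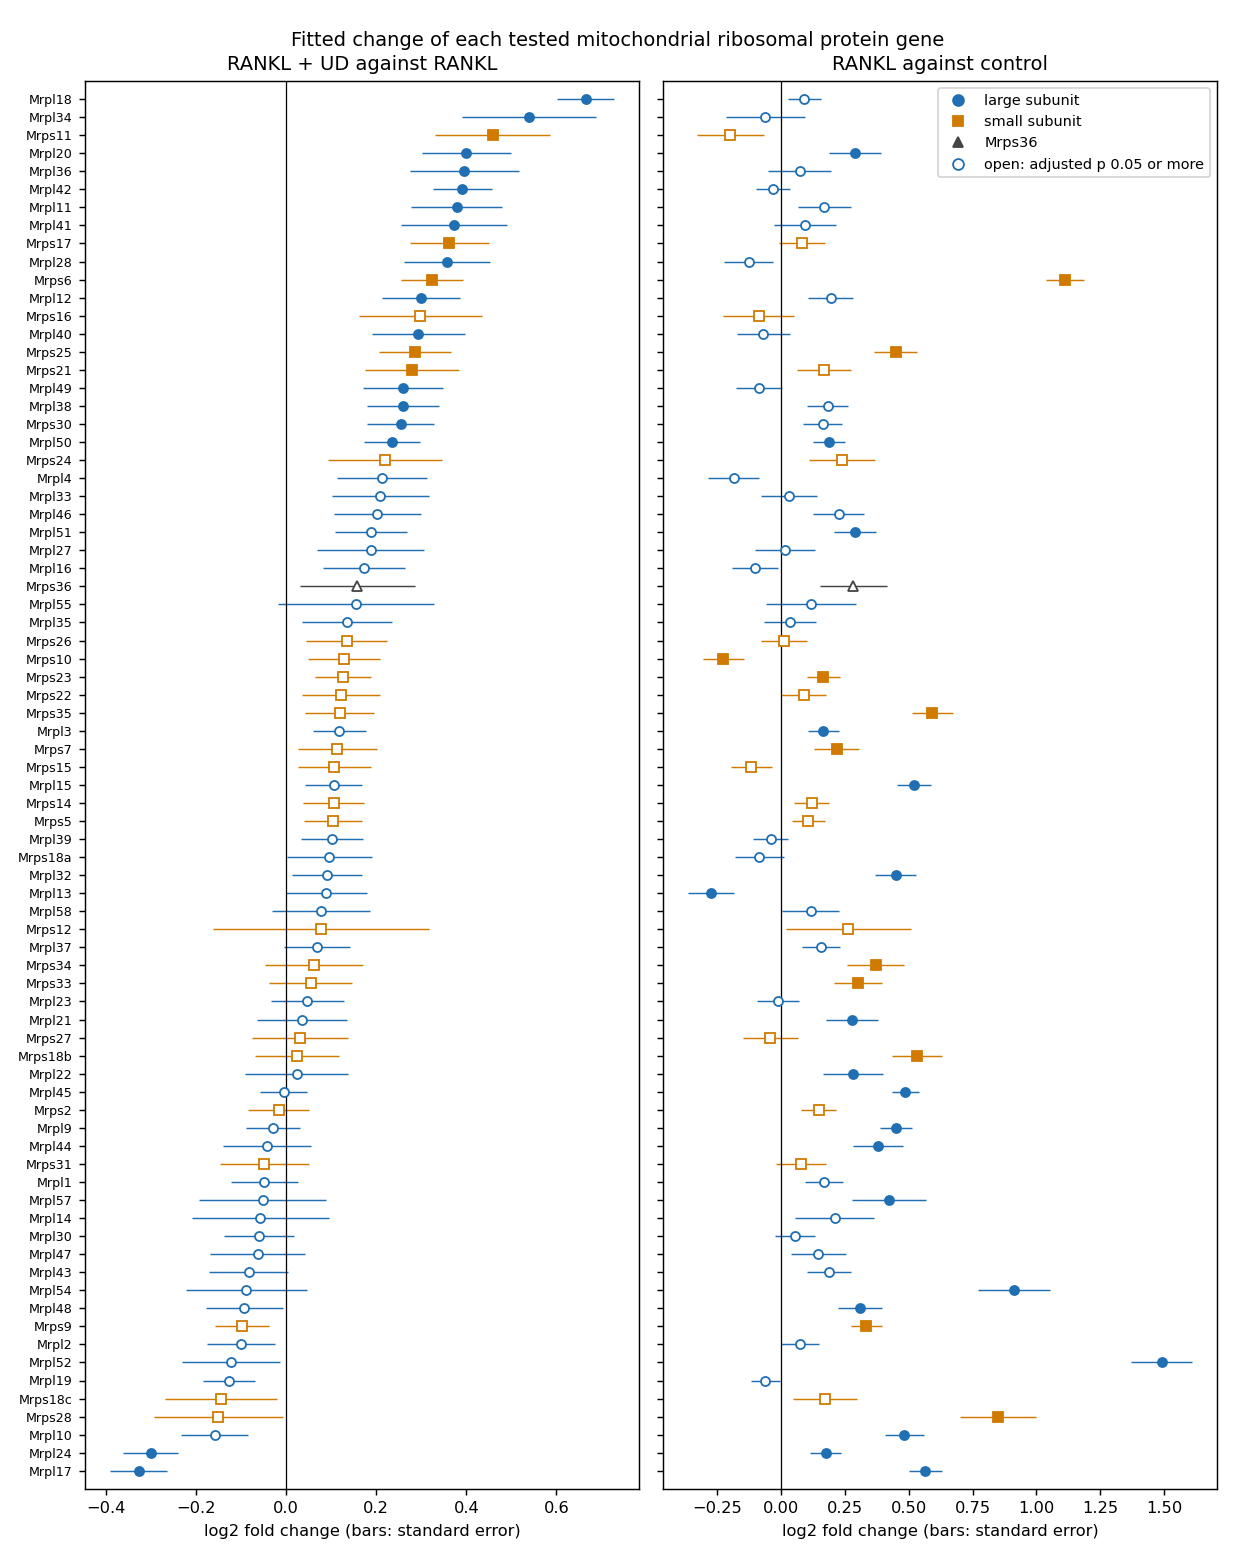
Fitted log2 fold change (x axis, bars give the standard error) of each of the 77 tested genes (y axis, in the order of their change between RANKL + UD and RANKL) for RANKL + UD against RANKL on the left and RANKL against control on the right. Filled symbols passed the test at an adjusted p under 0.05. With UD the filled symbols are 19 to the right of 0 and 2 to the left, and with RANKL they are 28 and 2.

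With UD added to RANKL, 19 of the 77 genes were higher than with RANKL alone and 2 were lower. That is 24.7% higher and 2.60% lower, where 18.6% of all tested genes were higher and 20.2% lower. The median log2 fold change was 0.11 over the members and 0.00 over all tested genes. With library totals alone as the scaling, 33 were higher and 2 lower, the median being 0.19 beside 0.09 for all tested genes. In FPKM, all 3 RANKL + UD libraries lay above all 3 RANKL libraries for 43 of the 77 genes, where 34.1% of all tested genes did so, and below them for 3, where 17.6% of all tested genes did so. Of 50 large-subunit genes 14 were higher and 2 lower, and of 26 small-subunit genes 5 were higher and none lower. The UD samples also differed from the RANKL samples in markers, with osteoclast markers lower and all 10 proliferation markers higher, and in bulk RNA fewer cells of a type cannot be told apart from less RNA per cell. The part of these shifts in the values of the members was not tested.

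Mrpl18 stood first. It is a protein of the central protuberance, the crown of the large subunit that faces the small one, and its gene is on chromosome 17. Its FPKM was 35.2, 38.2 and 37.0 in the control libraries, 35.0, 37.1 and 38.6 in the RANKL libraries and 65.5, 59.6 and 61.0 in the RANKL + UD libraries. Control and RANKL libraries covered the same range, and the RANKL + UD libraries all lay above them. The log2 fold change was 0.66 ± 0.06 (SE, adjusted p = 4.93e-08) for RANKL + UD against RANKL and 0.09 for RANKL against control (adjusted p = 0.245). It was the only member with a rise of more than 1.5-fold between RANKL + UD and RANKL. On the opposite strand it overlaps 645 bases of Tcp1, a subunit of the cytosolic chaperonin, which had a log2 fold change of -0.00 in the same comparison and 0.20 with RANKL.

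Mrpl34, a small protein of the large subunit with a bacterial counterpart, had FPKM values of 13.4, 14.5 and 10.7 in the control libraries, 12.4, 11.2 and 11.4 in the RANKL libraries and 20.6, 17.3 and 15.9 in the RANKL + UD libraries. The RANKL + UD libraries lay above the other 6, and the log2 fold change against RANKL was 0.54 ± 0.15 (SE, adjusted p = 0.00683). Without RANKL + UD replicate 1 it was 0.42 (adjusted p = 0.0549). Mrps11, a small-subunit protein, had FPKM values of 8.25, 6.83 and 7.19 in the control libraries, 5.12, 5.74 and 7.39 in the RANKL libraries and 8.55, 9.79 and 8.29 in the RANKL + UD libraries, with the RANKL + UD libraries again above the other 6. The rise over RANKL was 0.46 ± 0.13 (SE, adjusted p = 0.00713) on the log2 scale, and without RANKL replicate 1 it was 0.35 (adjusted p = 0.05). Against control the log2 fold change with RANKL + UD was 0.26 (adjusted p = 0.0923), without a call. Mrps11 shares 413 bases with Mrpl46 on the opposite strand, whose log2 fold change was 0.20 (adjusted p = 0.107).

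Mrpl20, a large-subunit protein with a bacterial counterpart, rose in both steps. Its FPKM was 16.5, 15.3 and 13.0 in the control libraries, 16.7, 16.2 and 18.7 in the RANKL libraries and 26.9, 23.7 and 21.5 in the RANKL + UD libraries, and the RANKL + UD libraries lay above all others. The log2 fold change was 0.29 ± 0.10 (SE, adjusted p = 0.0207) with RANKL and 0.40 ± 0.10 (SE, adjusted p = 0.00301) for RANKL + UD against RANKL. The first of these calls was lost without control replicate 3 (0.20, adjusted p = 0.0984) and without RANKL replicate 3 (0.23, adjusted p = 0.103), while the second held without any 1 library. The first was also lost with library totals (0.20, adjusted p = 0.0971) and with limma on log2 FPKM (adjusted p of 0.125 and 0.127). Mrpl50, Mrps25 and Mrps6 were the other members called higher in both comparisons. Of these, Mrps25, a small-subunit protein of mitochondria only, had FPKM values of 3.65, 3.52 and 3.29 in the control libraries, 4.36, 4.26 and 4.81 in the RANKL libraries and 5.76, 5.77 and 5.85 in the RANKL + UD libraries, with no overlap between any 2 groups, and log2 fold changes of 0.45 and 0.29. Mrps25 (mean 4.59 FPKM) shares 4770 bases with Nr2c2 (mean 4.53 FPKM) on the opposite strand. Nr2c2 had log2 fold changes of 0.03 with RANKL and 0.03 for RANKL + UD against RANKL. Its part in the values of Mrps25 was not tested.

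The remaining rises among the 8 largest were those of Mrpl36 (0.40 ± 0.12 SE, adjusted p = 0.0135), Mrpl42 (0.39 ± 0.07 SE, adjusted p = 7.22e-05), Mrpl11 (0.38 ± 0.10 SE, adjusted p = 0.00494) and Mrpl41 (0.37 ± 0.12 SE, adjusted p = 0.0156), all of the large subunit. Those of Mrpl42 and Mrpl11 held without any 1 library. Mrpl36 had 0.27 (adjusted p = 0.0916) without RANKL replicate 1, and Mrpl41 had 0.32 (adjusted p = 0.0757) without RANKL + UD replicate 1. Mrps21, the gene with the highest FPKM, had FPKM values of 69.1, 59.6 and 51.2 in the control libraries, 67.3, 56.2 and 66.8 in the RANKL libraries and 94.4, 76.5 and 73.8 in the RANKL + UD libraries. The log2 fold change over RANKL was 0.28 ± 0.10 (SE, adjusted p = 0.0383), and it rested on 2 libraries, since it was 0.20 (adjusted p = 0.194) without RANKL replicate 2 and 0.15 (adjusted p = 0.28) without RANKL + UD replicate 1. It was also lost with limma (adjusted p of 0.0519 and 0.0529).

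The 2 genes that fell with UD had both risen with RANKL, and both encode proteins at the exit of the tunnel. Mrpl17 had FPKM values of 6.51, 6.50 and 7.05 in the control libraries, 8.98, 9.38 and 9.54 in the RANKL libraries and 8.22, 7.39 and 7.96 in the RANKL + UD libraries, so the RANKL + UD libraries lay between the other groups and overlapped neither. Its log2 fold change was -0.33 ± 0.06 (SE, adjusted p = 3.18e-04) for RANKL + UD against RANKL. Mrpl24 had FPKM values of 46.1, 47.8 and 41.4 in the control libraries, 47.6, 45.3 and 50.9 in the RANKL libraries and 42.4, 41.1 and 40.4 in the RANKL + UD libraries. Its RANKL + UD libraries lay below all RANKL libraries and overlapped the control libraries. The log2 fold change was 0.17 ± 0.06 (SE, adjusted p = 0.0178) with RANKL and -0.30 ± 0.06 (SE, adjusted p = 4.76e-04) for RANKL + UD against RANKL. The rise of Mrpl24 was lost without control replicate 3 (0.12, adjusted p = 0.0936) and without RANKL replicate 3 (0.13, adjusted p = 0.0862), and both falls held without any 1 library. That rise was also lost with library totals (0.086, adjusted p = 0.23) and with limma (adjusted p = 0.245).

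**Figure D2:**
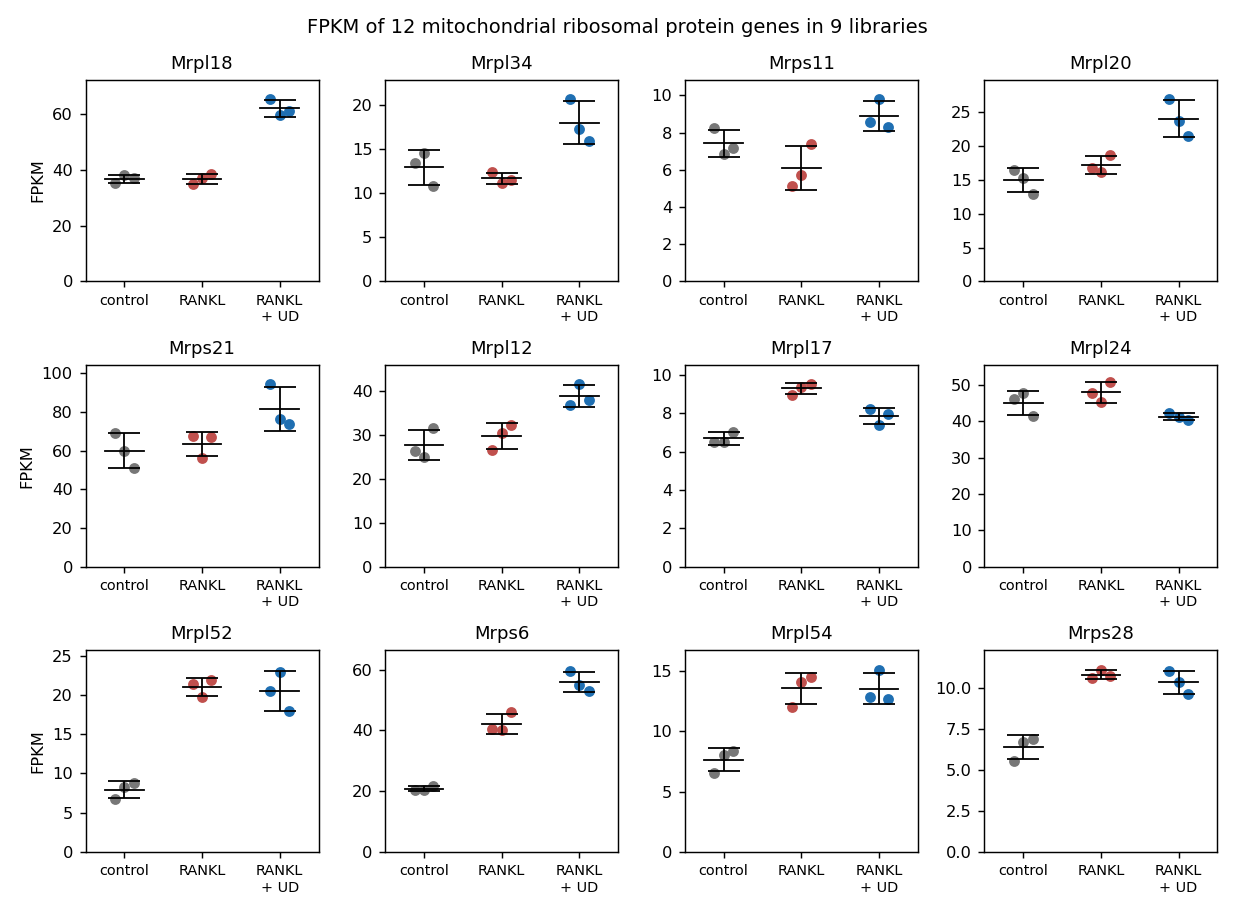
FPKM (y axis, from 0) of 12 mitochondrial ribosomal protein genes in the 9 libraries, by group (x axis); points are libraries, the long line is the mean and the bars are ± 1 SD over 3 libraries. The RANKL + UD values of Mrpl18, from 59.6 to 65.5, lie above all its other values, while those of Mrpl17 lie below its RANKL values, and Mrpl52 and Mrpl54 separate control from both other groups.

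The 2 comparisons share the RANKL libraries, so their calls are set side by side only. How many of all tested genes showed each pattern was not counted. The counts of members are therefore a description without a background. Besides the 4 genes higher in both and the 2 that rose and then fell, 22 were higher with RANKL and had no call with UD. These were Mrpl3, Mrpl9, Mrpl10, Mrpl15, Mrpl21, Mrpl22, Mrpl32, Mrpl44, Mrpl45, Mrpl48, Mrpl51, Mrpl52, Mrpl54, Mrpl57, Mrps7, Mrps9, Mrps18b, Mrps23, Mrps28, Mrps33, Mrps34 and Mrps35. Another 15 had no call with RANKL and were higher with UD, namely Mrpl11, Mrpl12, Mrpl18, Mrpl28, Mrpl34, Mrpl36, Mrpl38, Mrpl40, Mrpl41, Mrpl42, Mrpl49, Mrps11, Mrps17, Mrps21 and Mrps30. The 2 that fell with RANKL had no call with UD, and 32 genes had no call in either comparison. Of the rises with RANKL in this list, that of Mrpl3 (0.17 ± 0.06 SE, adjusted p = 0.0232) was lost without control replicate 2 (0.16, adjusted p = 0.0671), control replicate 3 (0.14, adjusted p = 0.0706), RANKL replicate 1 (0.15, adjusted p = 0.0765) or RANKL replicate 3 (0.13, adjusted p = 0.0914), and also with library totals (0.077, adjusted p = 0.28) and with limma (adjusted p of 0.297 and 0.298). That of Mrpl57 (0.42 ± 0.15 SE, adjusted p = 0.0173) was lost without control replicate 1 (0.38, adjusted p = 0.058) or RANKL replicate 3 (0.25, adjusted p = 0.153), and also with library totals (0.33, adjusted p = 0.0548) and with limma (adjusted p of 0.0782 and 0.0817). Some missing calls became calls under an alternative. With RANKL, Mrpl12 was called higher with no filter (adjusted p = 0.0318) and a replicate block (0.0424). Mrpl38 was called higher with DESeq2 (adjusted p = 0.0466) and with only the 6 libraries compared (0.0487). Both were also called with RLE size factors (0.0498 and 0.0415). With UD, library totals and limma called Mrpl3 higher (adjusted p of 0.00802 to 0.0223), and likewise Mrps16 (adjusted p of 0.0298 to 0.0372). Library totals also called Mrpl15 (0.19, adjusted p = 0.0196) and Mrps10 (0.21, adjusted p = 0.0359) higher with UD. A missing call does not show that a gene was unchanged. The median standard error was 0.09 on the log2 scale in each comparison, the smallest called change with UD was 0.24 in size, and Mrps16 had 0.30 without a call.

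Against control, 46 of the 77 genes were higher with RANKL + UD and 1 was lower, where 26.7% of all tested genes were higher and 27.3% lower. The median log2 fold change was 0.28, beside -0.00 for all tested genes. With library totals alone, 45 were higher and 1 lower. Of the rises, 9 exceeded 1.5-fold, those of Mrpl15, Mrpl18, Mrpl20, Mrpl52, Mrpl54, Mrps6, Mrps25, Mrps28 and Mrps35. The single fall was that of Mrpl19, a large-subunit protein with a bacterial counterpart, with FPKM values of 12.6, 12.4 and 11.8 in the control libraries, 11.0, 11.0 and 11.2 in the RANKL libraries and 10.7, 10.8 and 10.8 in the RANKL + UD libraries and a log2 fold change of -0.19 ± 0.06 (SE, adjusted p = 0.00918). Mrpl19 (mean 11.4 FPKM) shares 2065 bases with Gcfc2 (mean 1.55 FPKM) on the opposite strand. Gcfc2 had a log2 fold change of 0.10 for RANKL + UD against control, and its part in the values of Mrpl19 was not tested. Large-subunit genes were higher in 29 of 50 cases and small-subunit genes in 16 of 26. Within the large subunit 15 of 30 genes with a bacterial counterpart and 14 of 20 genes of mitochondria only were higher, and within the small subunit 9 of 16 and 7 of 10.

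Summed over all 78 genes and expressed as TPM (FPKM scaled to the same total in every library), the level was 3526, 3534 and 3384 in the control libraries, 3648, 3717 and 3795 in the RANKL libraries and 4408, 4331 and 4343 in the RANKL + UD libraries. The 3 groups did not overlap. The means were 3481 ± 84.6, 3720 ± 73.2 and 4361 ± 41.6 (SD, n = 3), and the genes took 0.251%, 0.272% and 0.309% of all counts. This sum is led by the genes of high level and carries no further scaling between groups. The median over the 77 tested genes, taken from scaled values and set against the control mean, was 0.13, 0.15 and 0.20 on the log2 scale in the RANKL libraries and 0.33, 0.26 and 0.31 in the RANKL + UD libraries. On this measure too each RANKL + UD library lay above each RANKL library, and each RANKL library lay above the control libraries.

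**Figure D3:**
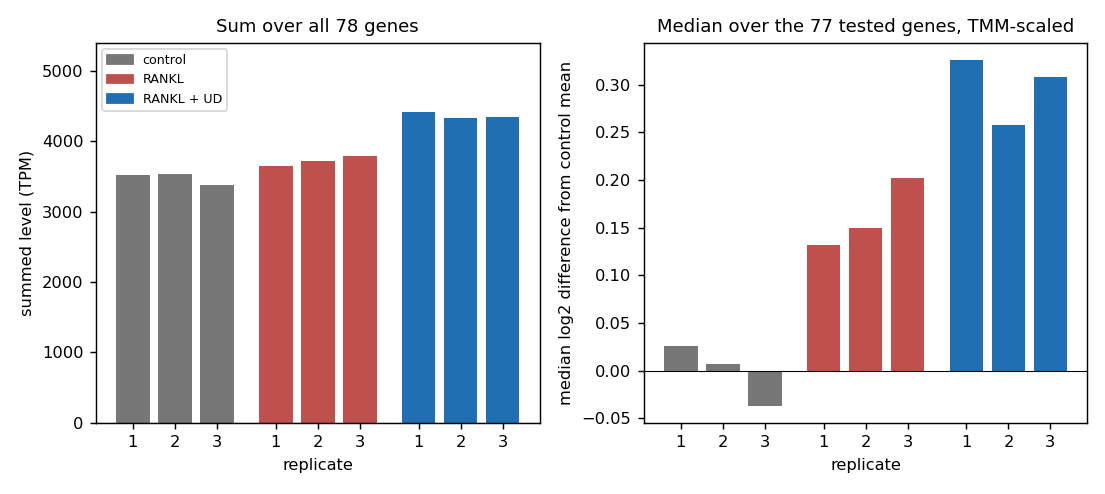
Left, summed level of all 78 genes (y axis, TPM) in each library (x axis, replicate within group). Right, median log2 difference of the 77 tested genes from the control mean after TMM scaling (y axis). Colours give the group; in both panels the RANKL + UD bars stand above the RANKL bars, from 4331 to 4408 against 3648 to 3795 on the left.

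The genes were also read by the place of their proteins in the large subunit. A place was written by hand for some of the proteins only, and these lists may be incomplete or differ from other accounts. For the stalk, where translation factors dock, 3 of the genes were listed. Mrpl12, the stalk protein that binds those factors, had FPKM values of 26.4, 25.0 and 31.5 in the control libraries, 26.4, 30.3 and 32.2 in the RANKL libraries and 36.8, 41.6 and 37.9 in the RANKL + UD libraries, and its RANKL + UD libraries lay above all others. It rose over RANKL by 0.30 ± 0.09 (SE, adjusted p = 0.00896) on the log2 scale with UD, but by 0.22 (adjusted p = 0.0627) without RANKL replicate 1 and by 0.25 (adjusted p = 0.0572) without RANKL + UD replicate 2. Mrpl11 of the stalk base had FPKM values of 6.21, 7.20 and 6.19 in the control libraries, 6.08, 7.03 and 7.68 in the RANKL libraries and 10.1, 8.73 and 9.79 in the RANKL + UD libraries and rose with UD as given above. Mrpl10, which holds the stalk proteins, had FPKM values of 19.6, 20.1 and 20.7 in the control libraries, 25.3, 26.1 and 28.0 in the RANKL libraries and 26.7, 23.3 and 25.4 in the RANKL + UD libraries. It rose with RANKL (0.48 ± 0.08 SE, adjusted p = 1.26e-05) and had a log2 fold change of -0.16 for RANKL + UD against RANKL (adjusted p = 0.0992).

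Of 8 genes for proteins at the tunnel exit, 5 were higher with RANKL, and with UD none was higher and 2, Mrpl17 and Mrpl24, were lower. Of all tested genes 27.3% were higher with RANKL, and with UD 18.6% were higher and 20.2% lower, so 2 of 8 lower is near that background. The median log2 fold change of the 8 with UD was -0.02. Mrpl45, the protein that anchors the ribosome to the inner membrane, had FPKM values of 27.1, 26.2 and 26.8 in the control libraries, 34.5, 35.1 and 35.8 in the RANKL libraries and 36.5, 36.6 and 38.5 in the RANKL + UD libraries, with every library given RANKL above every control library. Its log2 fold change was 0.49 ± 0.05 (SE, adjusted p = 8.95e-08) with RANKL and -0.01 with UD (adjusted p = 0.95). Mrpl44, a neighbour of the exit with an RNase III fold, rose with RANKL by 0.38 ± 0.10 (SE, adjusted p = 0.00269). Mrpl22, which lines the tunnel, rose by 0.28 ± 0.12 (SE, adjusted p = 0.0454), a call that was lost without any single control or RANKL library except control replicate 2 and also without RANKL + UD replicate 2, with log2 fold changes of 0.20 to 0.31 and adjusted p of 0.0519 to 0.165. It was also lost with library totals (0.19, adjusted p = 0.168) and with limma (adjusted p of 0.128 and 0.129). Mrpl23, Mrpl39 and Mrpl47 had no call in either comparison, though with library totals and with limma Mrpl39 was called higher with UD (log2 fold changes of 0.18 to 0.19, adjusted p of 0.0164 to 0.0323).

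Of 7 genes listed for the central protuberance, 1 (Mrpl48) was higher with RANKL and 4 (Mrpl18, Mrpl38, Mrpl40 and Mrps30) were higher with UD. Of all tested genes 27.3% and 18.6% were higher. The median log2 fold change of the 7 was 0.25 for RANKL + UD against RANKL. Mrpl52, which had the largest rise with RANKL, was given no site and is not among the 7. The call of Mrpl48 (0.31, adjusted p = 0.00472) was lost with limma (adjusted p of 0.0597 and 0.0615). Mrpl48 (mean 3.91 FPKM) overlaps 892 bases of Rab6a (mean 46.6 FPKM) on the opposite strand. Rab6a had log2 fold changes of 0.46 with RANKL and -0.21 with UD. The part of Rab6a in the values of Mrpl48 was not tested. Mrps30 had FPKM values of 5.17, 5.48 and 4.89 in the control libraries, 5.36, 5.38 and 5.65 in the RANKL libraries and 7.36, 6.88 and 6.49 in the RANKL + UD libraries, and its RANKL + UD libraries lay above all others. Its log2 fold change with UD was 0.25 ± 0.08 (SE, adjusted p = 0.0109), and 0.20 (adjusted p = 0.074) without RANKL + UD replicate 1. Mrpl38 had 0.26 ± 0.08 (SE, adjusted p = 0.0137), with calls lost without RANKL replicate 2 (0.22, adjusted p = 0.0682) and RANKL + UD replicate 3 (0.20, adjusted p = 0.096). Mrpl40 had 0.29 ± 0.10 (SE, adjusted p = 0.0285), and its call was lost without any 1 of 5 of the 6 libraries compared, with log2 fold changes of 0.23 to 0.30 and adjusted p of 0.0534 to 0.14. Mrpl58, a peptidyl-tRNA hydrolase built into this crown, had FPKM values of 5.24, 5.44 and 4.12 in the control libraries, 4.69, 5.37 and 5.07 in the RANKL libraries and 5.71, 5.76 and 5.47 in the RANKL + UD libraries and no call in any comparison. Mrpl46 had no call in RANKL against control or in RANKL + UD against RANKL, was higher with RANKL + UD than in control (0.43 ± 0.10 SE, adjusted p = 9.67e-04), and with library totals (adjusted p = 0.0212) and limma (adjusted p of 0.00889 and 0.00971) was called higher with UD than with RANKL. Whether the 3 sites differ from one another was not tested.

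In the small subunit, the genes for the channel where the messenger enters were Mrps5, with log2 fold changes of 0.11 with RANKL and 0.10 with UD, and Mrps24, with 0.24 and 0.22. None of these 4 values passed the test, although that of Mrps5 with UD did with library totals (0.19, adjusted p = 0.0236) and limma (adjusted p of 0.0244 and 0.0253), and both genes were higher with RANKL + UD than in control (0.21 ± 0.07 (SE, adjusted p = 0.00981) and 0.46 ± 0.13 (SE, adjusted p = 0.00492)). Mrps12, of the decoding centre, had FPKM values of 2.97, 2.19 and 2.41 in the control libraries, 2.39, 2.54 and 3.61 in the RANKL libraries and 3.62, 3.07 and 2.84 in the RANKL + UD libraries and 40 to 74 counts per library, and its standard error of 0.24 with UD was the largest of any member. Mrps7, a protein of the head, had FPKM values of 11.1, 12.1 and 12.4 in the control libraries, 11.8, 12.9 and 14.2 in the RANKL libraries and 14.9, 14.6 and 15.1 in the RANKL + UD libraries and a log2 fold change of 0.22 ± 0.09 (SE, adjusted p = 0.0424) with RANKL. That call was lost without any 1 of 7 libraries, with log2 fold changes of 0.14 to 0.23 and adjusted p of 0.0502 to 0.206, and also with library totals (0.13, adjusted p = 0.227), with limma (adjusted p of 0.166 and 0.167) and with no filter on low values (0.23, adjusted p = 0.0621). Mrps27, a protein with pentatricopeptide repeats, had -0.04 and 0.03 with no call. Mrps36, which is no longer counted as a ribosomal protein, had FPKM values of 11.4, 10.9 and 7.97 in the control libraries, 12.0, 11.2 and 11.6 in the RANKL libraries and 15.6, 12.6 and 12.9 in the RANKL + UD libraries and log2 fold changes of 0.28 (adjusted p = 0.071) and 0.16 (adjusted p = 0.355).

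The other parts of the mitochondrial translation system were read from lists. The 5 proteins of the mitochondrial ribosome that carry other names were Dap3, Chchd1, Aurkaip1, Ptcd3 and Gadd45gip1. Of these, 3 were higher with RANKL and 1 with UD. Among all tested genes the shares higher were 27.3% and 18.6%. Dap3, a GTP-binding protein of the small subunit, rose with RANKL by 0.47 ± 0.07 (SE, adjusted p = 2.71e-06) and had -0.06 with UD (adjusted p = 0.489). Ptcd3, a small-subunit protein with pentatricopeptide repeats, rose in both steps, by 0.20 ± 0.06 (SE, adjusted p = 0.00568) and 0.18 ± 0.06 (SE, adjusted p = 0.0185).

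Of 16 tested translation factors of the organelle, 6 were higher and 1 lower with RANKL, and 5 were higher and 1 lower with UD. The shares were 37.5% higher and 6.25% lower with RANKL, and 31.25% higher and 6.25% lower with UD. Of all tested genes, 27.3% were higher and 30.2% lower with RANKL, and 18.6% were higher and 20.2% lower with UD. Tufm, the elongation factor that brings aminoacyl-tRNA, had FPKM values of 32.4, 34.6 and 35.8 in the control libraries, 37.4, 40.3 and 43.1 in the RANKL libraries and 46.0, 49.5 and 50.6 in the RANKL + UD libraries with no overlap between groups, and log2 fold changes of 0.32 with RANKL and 0.19 with UD (adjusted p = 1.54e-04 and 0.0182). Gfm1, the elongation factor for translocation, had FPKM values of 18.4, 18.6 and 19.6 in the control libraries, 24.1, 24.8 and 23.4 in the RANKL libraries and 32.4, 29.6 and 31.0 in the RANKL + UD libraries, again with no overlap, and 0.44 and 0.28 (adjusted p = 4.94e-07 and 2.78e-04). Gfm2, which acts in ribosome recycling, fell with UD, with a log2 fold change of -0.22 ± 0.07 (SE, adjusted p = 0.00999). Of 24 tested genes for assembly of the mitochondrial ribosome, 4 were higher and 4 lower with RANKL, and 3 were higher and none lower with UD. That is 16.7% higher and 16.7% lower with RANKL and 12.5% higher with UD. The shares of all tested genes were larger, at 27.3%, 30.2% and 18.6%. The 3 higher with UD were Fastkd2 (0.39), Noa1 (0.27) and Rcc1l (0.43).

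The transcripts that the mitochondrial ribosome uses were read next. Of 13 mitochondrially encoded messengers, 7 were higher and none lower with RANKL, with a median log2 fold change of 0.66. With UD 1 was higher and 2 were lower, with a median of 0.01 and log2 fold changes of single messengers from -0.54 to 0.78. Of all tested genes, 27.3% were higher and 30.2% lower with RANKL, and 18.6% were higher and 20.2% lower with UD. mt-Nd2, a complex I subunit, rose with RANKL by 0.98 ± 0.06 (SE, adjusted p = 4.92e-12) and had 0.01 with UD (adjusted p = 0.904). mt-Co1, a complex IV subunit, had -0.09 (adjusted p = 0.0777) with RANKL and fell with UD, with a log2 fold change of -0.22 ± 0.04 (SE, adjusted p = 3.42e-04). Nuclear copies of mitochondrial DNA can take part of these reads, so the levels of mitochondrial transcripts are uncertain. The large ribosomal RNA mt-Rnr2 rose with RANKL by 1.28 ± 0.05 (SE, adjusted p = 1.37e-15) and had 0.15 ± 0.05 (SE, adjusted p = 0.015) with UD, and the small one, mt-Rnr1, rose by 0.43 ± 0.06 (SE, adjusted p = 1.50e-06) and then had a log2 fold change of -0.31 ± 0.06 (SE, adjusted p = 1.90e-04).

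For the cytosolic ribosome, genes were read by symbol, as Rpl or Rps followed by a digit, without -ps. Of these 100 genes, 90 were tested. The rule also takes symbols that do not name ribosomal proteins, such as those of the Rps6k kinases. It leaves out Rpsa and the Rplp symbols. The values below are of this set of symbols and not of cytosolic ribosomal proteins alone. Of these, 49 were higher and 7 lower with RANKL, with a median log2 fold change of 0.18, beside 0.17 for the mitochondrial ribosomal protein genes. With UD 3 were higher and 48 lower, with a median of -0.18, whereas the 77 mitochondrial genes had 19 higher, 2 lower and a median of 0.11. The difference between the 2 sets was not tested. Over all tested genes, 27.3% were higher and 30.2% lower with RANKL, and 18.6% were higher and 20.2% lower with UD. Many cytosolic genes have processed pseudogenes that can share their reads.

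**Figure D4:**
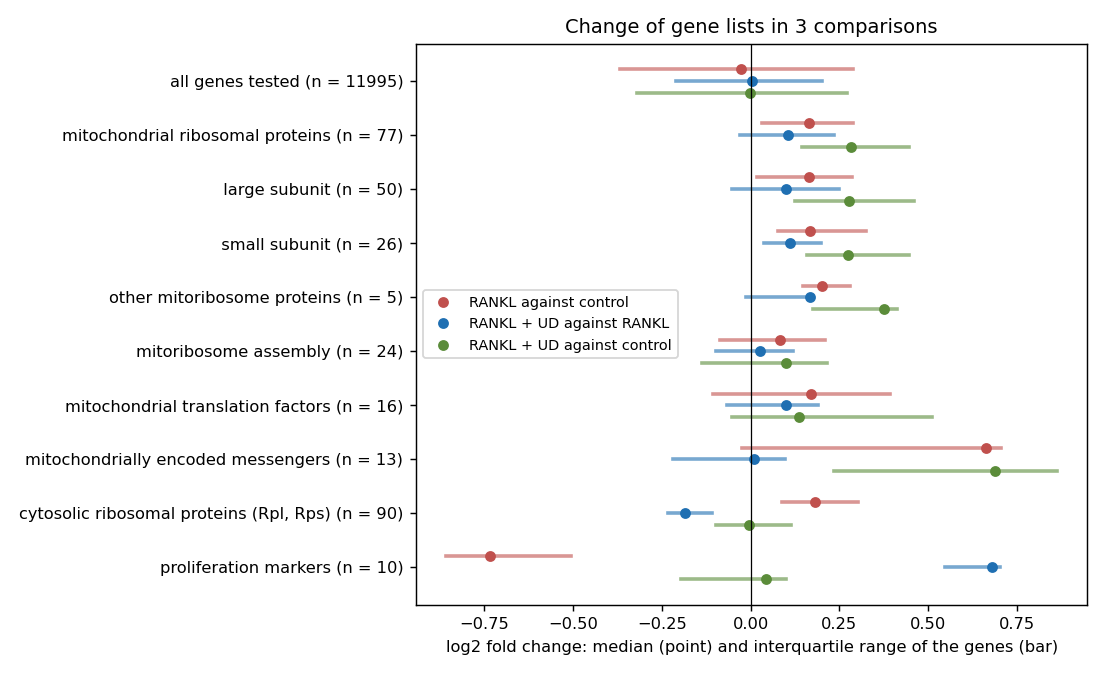
Median (point) and interquartile range (bar) of the fitted log2 fold changes (x axis) of the genes tested in each list (y axis, with the number tested), for 3 comparisons shown by colour. The median of the mitochondrial ribosomal protein genes is 0.17, 0.11 and 0.28 in the order of the legend. That of the genes read by the symbols Rpl and Rps, labelled cytosolic, is 0.18, -0.18 and -0.01.

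Several members lie over another gene. By the deposited gene coordinates, 25 of the 78 overlap a tested gene, 21 of them on the opposite strand and 4 on the same strand. The library protocol marks strand, but whether the counting used it was not stated. Among the 52 tested genes with no such neighbour, 18 were higher and 1 lower with RANKL, 12 were higher and 1 lower with UD, and the median log2 fold changes were 0.16 and 0.10. The share that was higher was thus 34.6% and 23.1%, beside 36.4% and 24.7% over all 77. A pseudogene of Mrpl48, with up to 181 counts in a library, was left out by the rule and may share reads with Mrpl48.

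Set beside the promoter motifs described above, the calls divided as follows. Over all tested genes 27.3% were higher with RANKL and 18.6% with UD. Of 8 tested members with an NRF1 match, 6 were higher with RANKL, and with UD none was higher and 1 was lower, while of 60 without one, 17 were higher with RANKL and 18 with UD. Of 26 with a CCAAT box, 6 were higher with RANKL and 11 with UD, and of 42 without one, 17 and 7 were. For the ETS motif the counts were 11 and 3 of 25 with a match and 12 and 15 of 43 without. For YY1 they were 2 and 4 of 12 with a match and 21 and 14 of 56 without. The E-box gave 1 and 2 of 5 with a match and 22 and 16 of 63 without, and the GC box gave 10 and 7 of 34 with a match and 13 and 11 of 34 without. These counts are a description with no test. Among the members whose promoters are shown, Mrpl41 was called higher with UD alone, Mrpl10 and Mrpl52 with RANKL alone and Mrps6 in both comparisons.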

How the data were processed

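The data are bulk RNA-seq of 9 libraries of RAW264.7 cells in 3 groups of 3. The authors deposited 1 table with read counts and FPKM values per gene, and the submitters' processing notes name the mm10 build. The tools used for alignment and counting are not given in the sources used here. The gene coordinates of the table were identical to those of the GRCm38 annotation for 1435 of 52073 shared genes and for 1 of the 78 members, so only chromosomes are given for genes. The deposited FPKM was recomputed from the deposited counts, lengths and totals for 100% of values. Groups come from the labels. The members and lists were chosen with earlier results of these data known. Counts were tested with edgeR 4.0.16 (TMM scaling, quasi-likelihood test, 1 fit over all libraries) in R 4.3.3 for the 11995 genes that reached 1 FPKM in 3 or more libraries. Calls used a Benjamini-Hochberg adjusted p under 0.05. The self-test ran on simulated counts. Genes described singly were up to 8 called members with the largest rise and up to 8 with the largest fall in RANKL against control and in RANKL + UD against RANKL, the 5 highest and 5 lowest in FPKM, the member not tested, and those with a listed site or role. Mrps25 and Mrpl19 fall outside this rule and were chosen after their values were seen. DESeq2 1.42.0, limma 3.58.1, other scalings, no filter, a replicate block and leaving out each library were the alternatives.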

Additional observations from a re-analysis of the deposited data

How the results depend on the processing

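With library totals alone, RANKL against control gave 18 members higher, 5 lower and a median log2 fold change of 0.077, and RANKL + UD against RANKL gave 33 higher and a median of 0.19. With limma on log2(FPKM + 1) RANKL against control gave 17 higher, 4 lower and a median of 0.071, and RANKL + UD against RANKL gave 28 higher and a median of 0.18. With log2(FPKM + 0.1) these values were 17, 4, 0.077, 28 and 0.19. Without a filter on low values, 1 member was lower with RANKL and 0 were lower with RANKL + UD than in control (edgeR). Libraries of the same replicate number in different groups correlated by -0.03 to 0.10 in their deviations from the group means. These values do not settle whether such libraries were paired. A replicate block gave 30 higher and 3 lower with RANKL and 20 and 2 for RANKL + UD against RANKL. For RANKL + UD against control it gave 47 and 2. Leaving out 1 library at a time gave 19 to 30 higher, 1 to 3 lower and a median of 0.13 to 0.18 with RANKL, 14 to 19 higher, 2 lower and 0.081 to 0.14 for RANKL + UD against RANKL, and 41 to 46 higher, 1 to 2 lower and 0.28 to 0.31 for RANKL + UD against control. The count lower with RANKL was 1 without control replicate 1, RANKL replicate 1 or RANKL replicate 2 and 3 without RANKL replicate 3, and the count lower with RANKL + UD than in control was 2 without control replicate 3 or RANKL + UD replicate 1. Of the members, 46 were followed singly under each alternative, and the others, Mrps25, Mrpl50 and Mrpl19 among them, only within the counts. Among the 46, no sign turned in a comparison where the member had a call as reported, and the cause of the turns was not tested.

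For RANKL against control, the log2 fold changes of opposite sign were Mrpl23 0.0051 (RLE size factors), 0.0023 (no filter), 0.0086 (only the 6 libraries compared), 0.0051 (DESeq2), Mrpl36 -0.017 (library totals), -0.017 (limma with 1), -0.018 (limma with 0.1) and Mrpl27 -0.074 (library totals), -0.055 (limma with 1), -0.058 (limma with 0.1). Leaving out 1 library at a time turned the sign of uncalled members among the 46 in this comparison, with ranges of Mrpl23 -0.045 to 0.018, Mrpl27 -0.084 to 0.16, Mrpl40 -0.13 to 0.015, Mrpl34 -0.17 to 0.032, Mrpl36 -0.026 to 0.22, Mrpl41 -0.031 to 0.23, Mrps16 -0.17 to 0.058, Mrps18c -0.026 to 0.33, Mrps27 -0.12 to 0.082 and Mrpl39 -0.072 to 0.00069. For RANKL + UD against RANKL, the log2 fold changes of opposite sign were Mrpl57 0.034 (library totals), 0.030 (limma with 1), 0.038 (limma with 0.1), Mrpl47 0.022 (library totals), 0.016 (limma with 1), 0.019 (limma with 0.1), Mrpl44 0.043 (library totals), 0.042 (limma with 1), 0.045 (limma with 0.1) and Mrpl45 0.081 (library totals), 0.00017 (no filter), 0.079 (limma with 1), 0.080 (limma with 0.1). Leaving out 1 library at a time turned the sign of uncalled members among the 46 in this comparison, with ranges of Mrps18b -0.058 to 0.10, Mrps12 -0.036 to 0.28, Mrpl47 -0.17 to 0.0066, Mrps27 -0.094 to 0.10, Mrpl57 -0.16 to 0.12, Mrpl22 -0.065 to 0.068, Mrpl44 -0.12 to 0.048, Mrpl45 -0.030 to 0.0089, Mrpl13 -0.016 to 0.16 and Mrpl23 -0.0073 to 0.080. For RANKL + UD against control, the log2 fold changes of opposite sign were Mrps27 0.0083 (no filter). Leaving out 1 library at a time turned the sign of uncalled members among the 46 in this comparison, with ranges of Mrps18a -0.043 to 0.071, Mrps27 -0.085 to 0.038, Mrps18c -0.17 to 0.18, Mrpl23 -0.018 to 0.065 and Mrpl47 -0.024 to 0.15.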
